A study of Arabidopsis thaliana with 2 samples.

Results

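SPCH, MUTE, FAMA and STOMAGEN, 4 regulators of the stomatal lineage, were examined in seedlings of Arabidopsis thaliana on Affymetrix 3′ expression arrays. They were chosen by name: SPCH (AT5G53210), MUTE (AT3G06120), FAMA (AT3G24140, listed as FMA) and STOMAGEN (AT4G12970) each had 1 probe set with a single gene in the array annotation, and the 4 genes stand among 13356 named there. One array held RNA of the C24 wild type (C24_WT) and 1 array RNA of ros1-1, a mutant of the DNA demethylase ROS1 in the C24 background. Both were 15-day seedlings grown on MS medium at 22 °C with 16 h of light and 8 h of darkness, and no treatment or transgene is named for either. Each genotype had 1 array and no replicate, so no test was possible, and every difference below describes these 2 arrays.

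Stomata, the pores of the epidermis, arise from a short series of divisions run by related basic helix-loop-helix transcription factors. SPCH starts the lineage by driving the first asymmetric divisions, MUTE ends them and commits a cell to become a guard mother cell, and FAMA stops the last division and sets guard cell identity. STOMAGEN, also called EPFL9, is a secreted peptide made in the mesophyll that promotes stomata by competing with the inhibitory peptides EPF1 and EPF2 at receptors of the ERECTA and TMM families. ROS1 removes methylated cytosines, and ros1 mutants have been described with extra cells of the stomatal lineage, with methylation at the EPF2 promoter. EPF1, EPF2, ERECTA and TMM carried no single-gene probe set in the array annotation and were not analysed here, nor was ROS1 itself, so the mutated gene was no check on the labels.

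SPCH and MUTE lay low on both arrays, and FAMA and STOMAGEN stood higher and were nearly equal between genotypes. A signal is the linear intensity of a probe set as summarised by the authors with MAS5. A floor was set at a signal of 132, the 40th percentile over both arrays, and probe sets that reached it on at least 1 array are called measured. FAMA and STOMAGEN reached the floor on both arrays, and SPCH and MUTE on neither. Neither of the 2 measured genes differed by 2-fold in either direction, beside 0.446% of the 14126 measured probe sets of the series. At this share, 0 of 2 says nothing particular about these genes.

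SPCH, the factor for entry into the lineage, had a signal of 123 in C24_WT and 82.2 in ros1-1. The wild-type value lay just under the floor, at 0.932 times it, and the mutant value at 0.622 times it. The deposited mutant value differed by -33.2% from the wild-type value, a log2 ratio (ros1-1 minus C24_WT) of -0.58. With both values raised to the floor the log2 ratio is 0 by construction. Ratios at this signal were widely spread: among the 500 probe sets nearest to SPCH in mean signal, the central 95% of log2 ratios ran from -0.82 to 0.93, with an SD of 0.45. The SPCH ratio lay inside that range, so a difference of the size seen could not be told from the spread of ratios at this signal.

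MUTE, which ends the asymmetric divisions, had a signal of 12.8 in C24_WT and 23.4 in ros1-1. Both values were far under the floor, at 0.0969 and 0.177 times it. The deposited values gave a log2 ratio of 0.87, while the 500 probe sets nearest in signal spanned -3.08 to 2.95 in their central 95%. Control probe sets for the bacterial transcripts Dap, Lys, Phe, Thr and Trpn show how low signals behave on these arrays. Of 15 such probe sets, 0 reached the MUTE signal in C24_WT, where the highest was 12.6, and 2 did so in ros1-1, where the highest was 44.8. MUTE therefore had no usable ratio here, and its higher mutant value stands within the range of those controls on the ros1-1 array.

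FAMA, the factor for guard cell identity, had a signal of 253 in C24_WT and 274 in ros1-1. Both lay near 2-fold above the floor, at 1.91 and 2.08 times it. The log2 ratio was 0.12, or 8.50% higher in ros1-1. As an estimate of measurement error, 61 genes had more than 1 probe set that reached the floor on each array, and the log2 ratios of these probe sets differed from their gene's mean with an SD of 0.19, and the FAMA ratio was smaller than this measurement scatter. The SD of 0.19 pools probe sets of every signal that reached the floor. At the signal of FAMA itself, the 500 nearest probe sets ranged from -0.61 to 0.61 in their central 95%, with an SD of 0.32. Variation between plants, RNA preparations and labellings was not measured and is not part of the SD of 0.19.

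STOMAGEN, the mesophyll peptide, was the member whose signal stood highest above the floor, with 685 in C24_WT and 725 in ros1-1. These were 5.18 and 5.49 times the floor. The log2 ratio was 0.08, or 5.92% higher in ros1-1, again smaller than the scatter of 0.19. Its neighbours in signal had the narrowest spread around any member, with a central 95% from -0.46 to 0.42 and an SD of 0.23. A 2-fold difference would have stood outside the ranges around STOMAGEN, FAMA and SPCH, and inside that around MUTE.

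**Figure D1:**
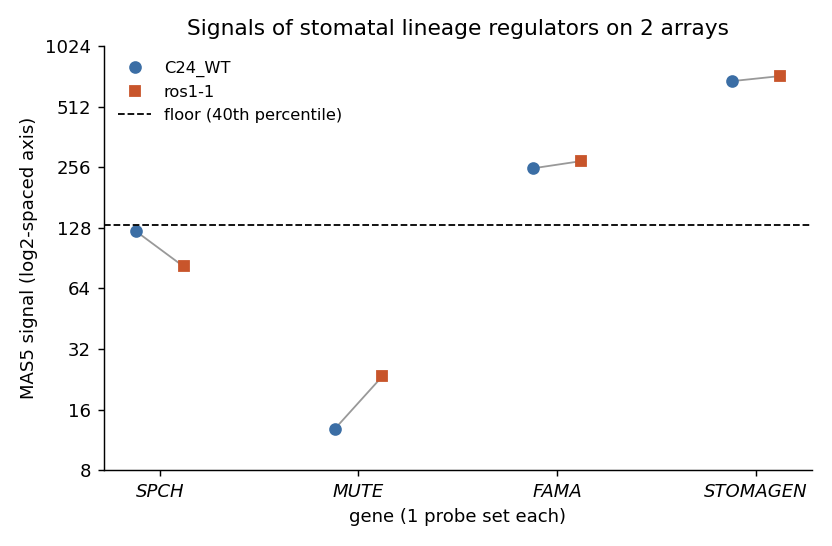
MAS5 signal (log2-spaced axis) of the 1 probe set of SPCH, MUTE, FAMA and STOMAGEN on the C24_WT array (circles) and the ros1-1 array (squares), 1 array each, with a dashed line at the floor of 132. SPCH and MUTE lie under the floor on both arrays, while FAMA at 253 and 274 and STOMAGEN at 685 and 725 lie above it.

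The 4 genes were then set side by side within each array. SPCH stood at percentile 38.8 of all probe sets in C24_WT and at 31.7 in ros1-1, and MUTE at 11.2 and 14.7. FAMA stood at percentile 53.8 in C24_WT and 56.0 in ros1-1, and STOMAGEN at 77.5 and 79.0. The order MUTE, SPCH, FAMA, STOMAGEN was thus the same on both arrays. Probe sets differ in how well they bind their target, so this order of signals is not an order of transcript amounts.

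A change of one gene relative to another between the arrays is less dependent on probe binding. The log2 ratio of FAMA exceeded that of SPCH by 0.70 over the deposited values, and that of STOMAGEN exceeded it by 0.67. Against MUTE the differences ran the other way, at -0.75 for FAMA and -0.79 for STOMAGEN. With values raised to the floor, the differences from SPCH and from MUTE were 0.12 for FAMA and 0.08 for STOMAGEN, because SPCH and MUTE were then level by construction. FAMA and STOMAGEN, both above the floor, differed in log2 ratio by -0.03 (STOMAGEN minus FAMA), against a scatter of 0.27 for a difference of 2 probe sets. The gaps of FAMA and STOMAGEN from SPCH and from MUTE thus had opposite signs. They rested on the dim signals of SPCH and MUTE, whose neighbours in signal had SDs of 0.45 and 1.74.

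**Figure D2:**
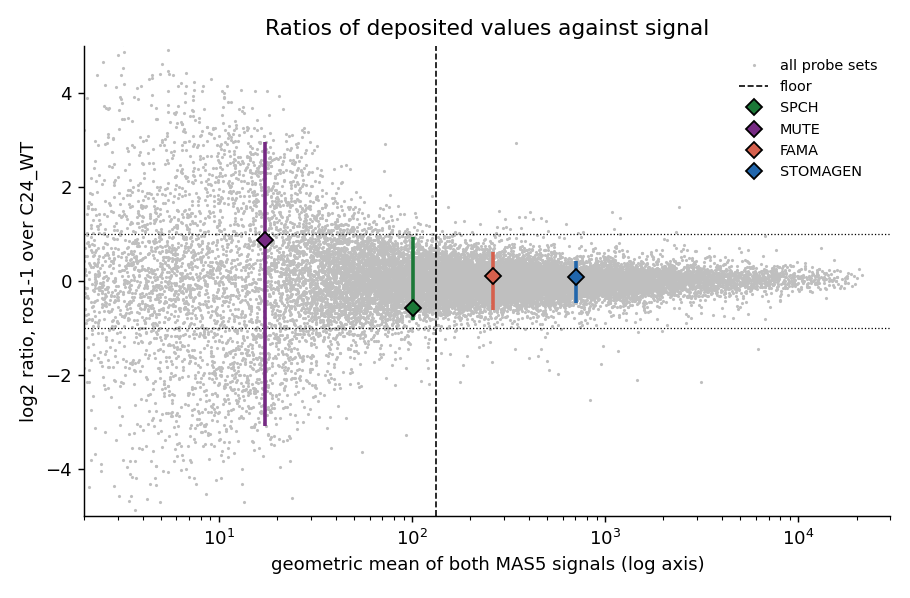
Log2 ratio of deposited signals (ros1-1 over C24_WT) against the geometric mean of both signals (log axis) for all probe sets (grey), with the 4 genes as diamonds and, as vertical bars, the central 95% of ratios of the 500 probe sets nearest in signal; dotted lines mark 2-fold, the dashed line the floor, and 332 probe sets outside the axes are not drawn. Each diamond lies inside its bar, and the bar narrows from MUTE, at -3.08 to 2.95, to STOMAGEN, at -0.46 to 0.42.

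A list of 90 loci was then examined, with the 4 genes among them. It covered the stomatal pathway, guard cells, myrosin cells and the bHLH subgroup of SPCH, MUTE and FAMA. Of these, 14 had a single-gene probe set and 6 were measured. By the 2-fold rule 0 of the 6 were higher and 0 were lower in ros1-1, against backgrounds of 0.205% higher and 0.241% lower. At 1.5-fold 0 of the 6 differed as well, against 3.8%. At these shares, 0 of 6 says nothing particular about the pathway. The median log2 ratio of the 6 was 0.10, beside -0.01 for all measured probe sets, with 4 above 0 and 2 below. That median fell between FAMA at 0.12 and STOMAGEN at 0.08, which are 2 of the 6. The other 4, given below, lay on both sides of 0.

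Beyond the 4 members, 10 of 86 loci had a single-gene probe set and 4 were measured. The kinase BLUS1 (AT4G14480), which acts in blue-light signalling of guard cells, had signals of 240 in C24_WT and 339 in ros1-1, a log2 ratio of 0.49. It stood furthest from 0 among the measured pathway genes and was under 1.5-fold. AGL16, a MADS-box factor that acts in the divisions that place satellite stomata, had 437 and 550, a log2 ratio of 0.33. ATSBT5.2, a subtilisin-like protease that cleaves the EPF2 peptide, had 474 and 430, a log2 ratio of -0.14. SOL1, a DNA-binding protein that acts in the lineage's divisions, had 177 in C24_WT and 129 in ros1-1. Its mutant value was under the floor, so its floored log2 ratio of -0.42 is a bound, and the deposited values gave -0.46.

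The remaining 6 were under the floor on both arrays, as SPCH and MUTE were. BRXL2, a polarity protein of the asymmetric division, had signals of 59.2 in C24_WT and 67.9 in ros1-1. The locus AT5G10310 of the EPF/EPFL list had 91.1 and 66.7. In the bHLH subgroup list, AT3G61950 had 98.0 and 65.6, a log2 ratio of -0.58 over the deposited values. The others of that list were AT4G01460 at 77.0 and 74.8, bHLH94 (AT1G22490) at 63.8 and 72.3, and AT5G65320 at 96.1 and 83.1. Of the bHLH factors given here, the 3 lineage factors included, FAMA was thus the one that reached the floor. The lists of bHLH partners, of the MAP kinase cascade, of late lineage cell-cycle and MYB genes and of myrosin cells had 0 members with a single-gene probe set.

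**Figure D3:**
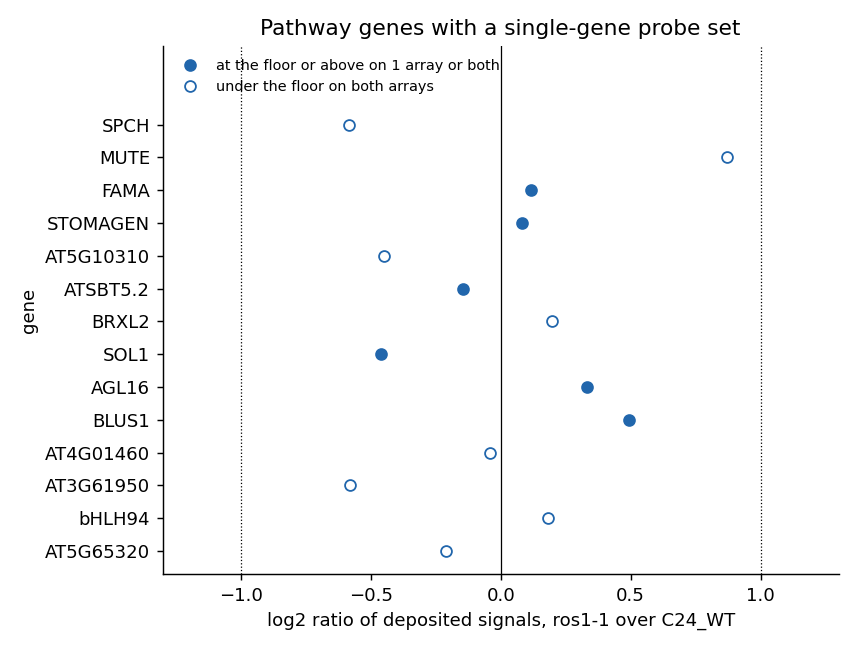
Log2 ratio of deposited signals (ros1-1 over C24_WT) for the 14 pathway genes with a single-gene probe set, filled where at least 1 array reached the floor and open where neither did; dotted lines mark 2-fold. The 6 filled points lie between -0.46 for SOL1 and 0.49 for BLUS1, and MUTE at 0.87, an open point, lies furthest from 0.

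The surroundings of each gene were read from gene order, taking the 5 protein-coding genes on each side. For SPCH, 4 of 10 flanking genes had a single-gene probe set, and 0 of them were measured. One of these was its adjacent gene TRY, a repressor of trichome fate in the epidermis, with signals of 83.02 in C24_WT and 62.2 in ros1-1. For MUTE, 3 of 10 were measured, with log2 ratios from -0.38 to 0.06. The upper end was LUL4, at 116 in C24_WT and 138 in ros1-1. Its wild-type value was under the floor, so its 0.06 is a bound, and the deposited values gave 0.25. For FAMA, 6 were measured, from -0.14 to 0.27, and for STOMAGEN 3, from -0.50 to 0.23. No measured neighbour of these genes differed by 1.5-fold, beside 3.8% of all measured probe sets. At this share, none among so few genes says nothing particular about these surroundings. The widest of these values was that of AT4G12980, next to STOMAGEN, at 620 and 439.

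Markers of other seedling tissues gave the setting of these values. Both measured leaf markers were bright: RCA, the activase of Rubisco, had 15226 in C24_WT and 17658 in ros1-1, and LHCB4.1, of the light-harvesting antenna, had 18035 and 16264. The root gene PYK10, a beta-glucosidase, was bright as well, with 13028 in C24_WT and 13729 in ros1-1. The other root markers were far dimmer, with EXPA7 at 154 and 193 and EXPA18 at 262 and 373. The 3 measured root markers had log2 ratios of 0.08 for PYK10, 0.33 for EXPA7 and 0.51 for EXPA18. For all measured probe sets the median was -0.01. The ratios of EXPA7 and EXPA18 lay inside the central 95% around FAMA, from -0.61 to 0.61. The leaf markers stood at 0.21 for RCA and -0.15 for LHCB4.1. The part of tissue make-up in the values of the stomatal genes was not tested. In whole seedlings, a difference in the number of lineage cells and one in RNA per cell cannot be told apart, whichever way a signal moves. In the trichome list TRY, and in the meristem and cell division list CLV3 at 6.04 and 12.6, were under the floor. The epidermis and vascular lists had 0 members with a single-gene probe set in the array annotation. In the DNA demethylation list, 2 of 4 genes with a single-gene probe set were measured. The ROS1 relative DME had log2 ratios of -0.46, -0.26 and -0.12 in its 3 probe sets, and the locus AT3G14890 had 0.19. The median signal was 216 in C24_WT and 213 in ros1-1, and 9 probe sets for the BioB, BioC, BioD and Cre hybridisation controls had log2 ratios from -0.25 to 0.26.

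The reading of SPCH and MUTE depended on how low signals were treated. Without a floor, or with a floor at the 25th percentile, SPCH had a log2 ratio of -0.58, and with an offset equal to the floor -0.25. MUTE was at 0.87 without a floor and at 0.10 with the offset. FAMA lay between 0.08 and 0.14 in all treatments except a floor at the 60th percentile, where it fell under the floor and was 0 by construction. STOMAGEN lay between 0.07 and 0.11 in every treatment tried.

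**Figure D4:**
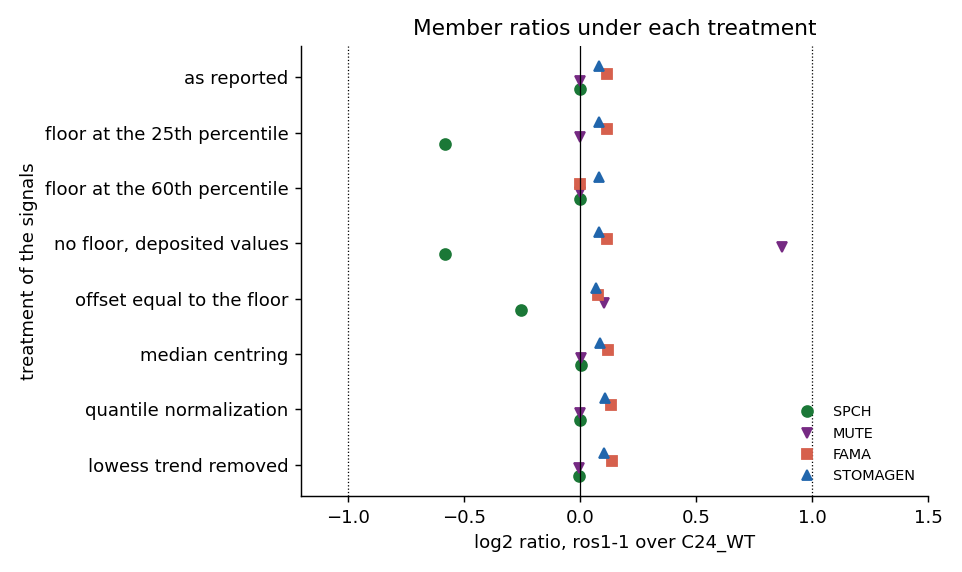
Log2 ratio (ros1-1 over C24_WT) of SPCH, MUTE, FAMA and STOMAGEN under 8 treatments of the signals, with dotted lines at 2-fold. STOMAGEN stays between 0.07 and 0.11, while SPCH runs from -0.58 to near 0 and MUTE reaches 0.87 where no floor is set.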

How the data were processed

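The authors deposited a linear intensity for each probe set, made with MAS5 as the submitters' processing notes state. Its version, scaling target and detection calls are not stated there. Both arrays had a mean of 500.04 once 2% of values was trimmed at each end, so no further scaling was applied. Of 22810 probe sets, 64 controls were set aside. The platform annotation gave 1 gene for 13513 probe sets, several for 503 and none for 8730. Loci were matched through the TAIR10.1 gene table, used for names and gene order only.

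Log2 ratios are ros1-1 minus C24_WT. No test was run, and a 2-fold rule was used; the number of arrays limits the precision. A gene was read from its brightest probe set. Every pathway gene with a single-gene probe set is named, and up to 3 genes of each marker list. AT4G12980, an extreme among flanking genes, was named after its value was seen. The members and lists were chosen with earlier results of these data known. The steps were tested on simulated data. Changes were simulated only in bright probe sets, with the same scatter at every signal. Signals as low as those of SPCH, MUTE and FAMA were therefore not covered. Alternatives were other floors, no floor, an offset, median centring, quantile normalization, lowess with a span of 0.3, thresholds of 1.5-fold and 3-fold, averaging the probe sets of a gene, and percentiles over single-gene probe sets. Python 3.11.15, pandas 2.3.3 and statsmodels 0.14.6 were used.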

Additional observations from a re-analysis of the deposited data

How the results depend on the processing

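Low signal limits SPCH and MUTE, and 1 array per genotype limits every value. No paired analysis was possible because each genotype had 1 array. Of 85 alternative values, 58 stayed within the limits set for a change and 27 moved. Part of the 58 could not move, as where SPCH and MUTE lay under a floor on both arrays. Median centring shifted every ratio by the same amount, and the setting with no floor kept the reported set of measured genes. The tally is therefore no measure of how firm the values are. For SPCH, a 25th-percentile floor or no floor gave a log2 ratio of -0.58, and the offset gave -0.25; for MUTE it was 0.87 with no floor. SPCH reached the floor at the 25th percentile on 2 arrays, and FAMA the floor at the 60th on 0. Under the 25th-percentile floor, 13 pathway genes counted as measured and their median log2 ratio was -0.04, against 0.10. Counts of probe sets higher in ros1-1 by 2-fold or more were 29 as reported, 80 under the 25th-percentile floor and 15 under the 60th. They were 56 with no floor and 12 with the offset. Those lower, in the same order, were 34, 99, 19, 77 and 20. The counts with no floor cover only the probe sets measured under the reported floor, so dimmer probe sets are not in them. Thresholds of 1.5-fold and 3-fold gave 261 and 1 higher, and 276 and 10 lower. Among single-gene probe sets only, percentiles in C24_WT and ros1-1 were 45.2 and 37.5 for SPCH, 14.0 and 18.3 for MUTE, 60.03 and 62.3 for FAMA, and 82.5 and 83.6 for STOMAGEN. For SPCH and MUTE the reported log2 ratio of 0 was itself set by the floor, and -0.58 and 0.87 are the ratios of the deposited values. The shifts in counts and percentiles with a floor, an offset, a threshold or another set of probe sets follow from the construction of that alternative.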
